A study of Mus musculus with 28 samples.

Results

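Histone chaperones other than FACT were taken as 10 genes by symbol and joined by NCBI gene ID across the files. They were *Asf1a*, *Asf1b*, *Chaf1a*, *Chaf1b*, *Hira*, *Daxx*, *Atrx*, *Nap1l1*, *Nap1l4*, and *Nasp*, of 15384 genes with an RNA-seq value, and all 10 had a value in every library. The cells were mouse embryonic stem cells (mESCs) of 1 line, E14, kept on gelatin in medium with LIF (10 ng/ml), a cytokine that holds them undifferentiated. For the *Ssrp1* knock-down (KD), cells received a combination of 2 plasmids with shRNAs against *Ssrp1*, a subunit of FACT, and control cells received a scramble shRNA. Both were transfected for 48 h and selected with puromycin (2 µg/ml) for 24 h, so that each library came from a pool of transfected cells and not from a clone. Total RNA of 4 control and 4 KD libraries was sequenced. Peaks of SSRP1 and SUPT16 in E14 mESCs, chromatin RNA of 2 libraries and a table of neural precursor cells (NPCs, from embryoid bodies in 1 µM retinoic acid for 4 d, then cultured for 3 d without LIF) and mESCs were read beside it.

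Histone chaperones bind histones that are not in nucleosomes and hand them over for assembly or take them up on disassembly. ASF1 passes H3-H4 dimers either to CAF-1, which builds nucleosomes behind the replication fork, or to the HIRA complex, which places the variant H3.3 outside replication. DAXX with ATRX places H3.3 at telomeres and pericentric repeats, NASP guards the soluble pool of H3-H4, and the NAP1 proteins mainly handle H2A-H2B, which FACT also binds.

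The libraries held 4602278 to 6680919 reads in control and 9433193 to 19856032 in KD, as recovered from the deposited values. A member had at least 242 reads in every library. The values scaled to library size do not have equal totals. They summed to between 825584 and 909417 in control libraries and between 1137290 and 1182580 in KD libraries. Every KD total was above every control total, so equal totals would lower all log2 fold changes of KD over control. A scaling to equal totals was not run, and how many members would then pass the fold threshold is not known. *Ssrp1* itself, the targeted gene, was measured, in values scaled to library size, at 261, 229.8, 223, and 226 in the control libraries (replicates 1 to 4, the order used throughout) and at 24.1, 26.4, 24.9, and 28.9 in the KD libraries. Its groups lay far apart (log2 fold change −3.15 ± 0.07, SE). RNA of *Supt16*, the other subunit, was 319 ± 22.02 in control and 504 ± 20.2 in KD (SD, n = 4). For the protein, the paper reports by mass spectrometry that SUPT16 was depleted together with SSRP1. Protein was not analysed here. The study's methods call the replicates biological, but the labels do not say that the 4 libraries of a group came from separate transfections, so that p-values measure the spread between these libraries only. In bulk RNA, fewer cells of a type and less RNA per cell cannot be told apart.

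In the KD, 8 of the 10 chaperone genes were higher than in every control library, and *Asf1a* and *Hira* overlapped between the groups. Groups did not overlap, with KD higher, in 35.8% of all genes. Members were called when the log2 fold change exceeded 1 in size and limma's adjusted p was below 0.01. Those past both thresholds were *Chaf1b*, *Nap1l1*, *Nap1l4*, and *Nasp*. That was 4 members higher and 0 lower, where 8.07% of all genes were called higher and 20.6% lower. By the adjusted p alone 8 members were higher, against 35.4% of all genes. At an unadjusted p below 0.05 limma gave 0 lower members, and edgeR and DESeq2 called 0 lower. The median log2 fold change was 0.65 over the members and −0.035 over all genes. The members are well expressed genes, and 9 of them fell in the highest of 4 classes of genes by level. In that class the median log2 fold change was 0.45, 15.3% of genes were called higher and 69.7% were higher by the adjusted p alone. In the lowest class the median was −1.10. So the 8 rises stood near the share of their own level class. The level is the mean over control and KD libraries together, so a rise in KD itself helps to place a gene in a higher class. Classes by control level alone were not made.

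**Figure D1:**
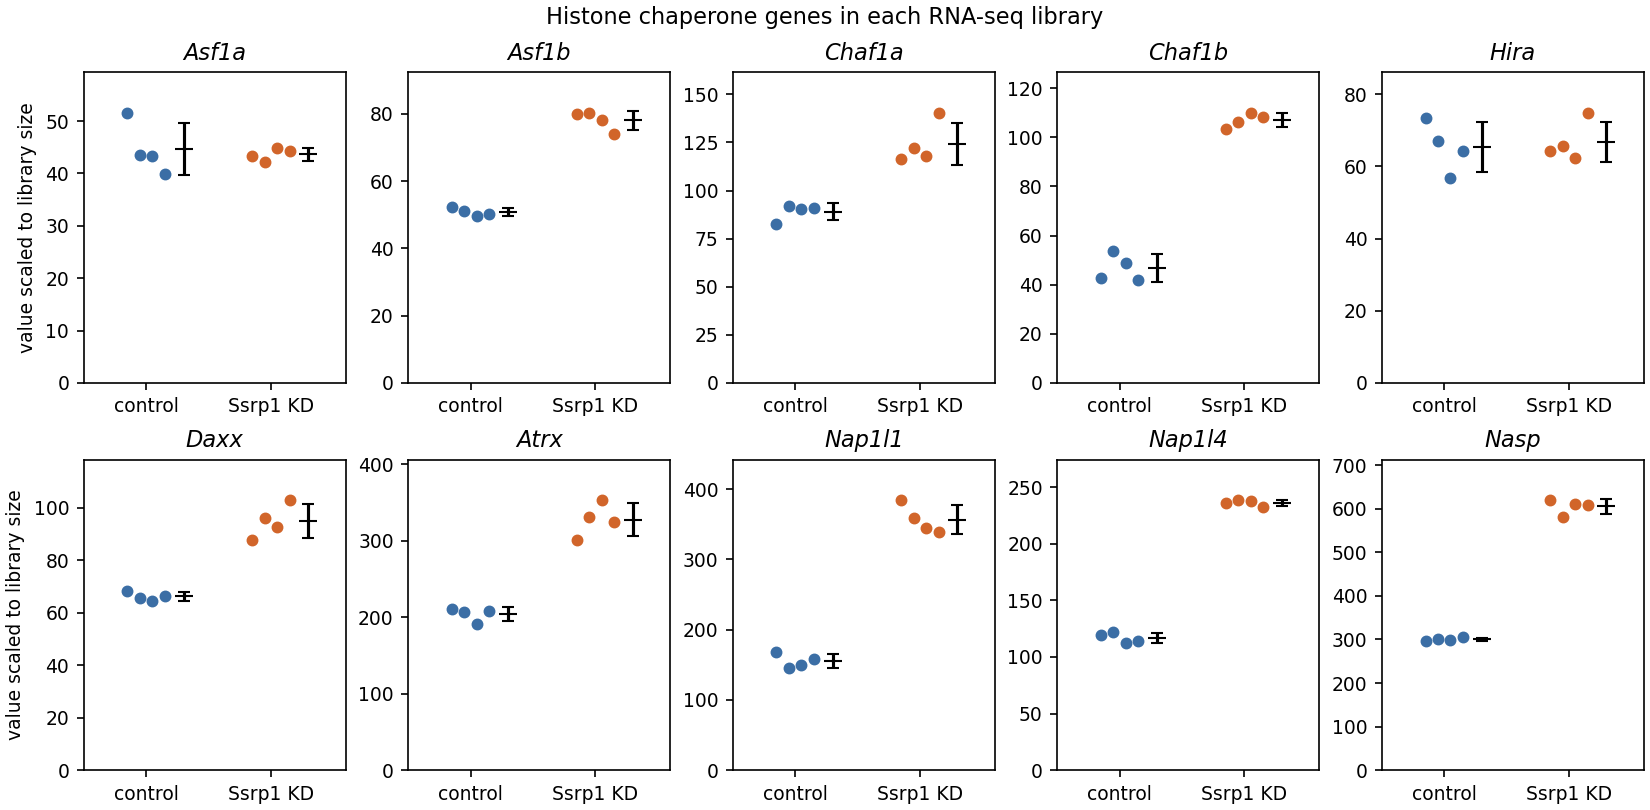
Values scaled to library size (y axes, from 0) of each chaperone gene in the 4 control (blue) and 4 Ssrp1 KD (orange) libraries, with the mean and SD of each group in black. The groups stand apart in 8 panels and overlap for *Asf1a* and *Hira*.

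**Figure D2:**
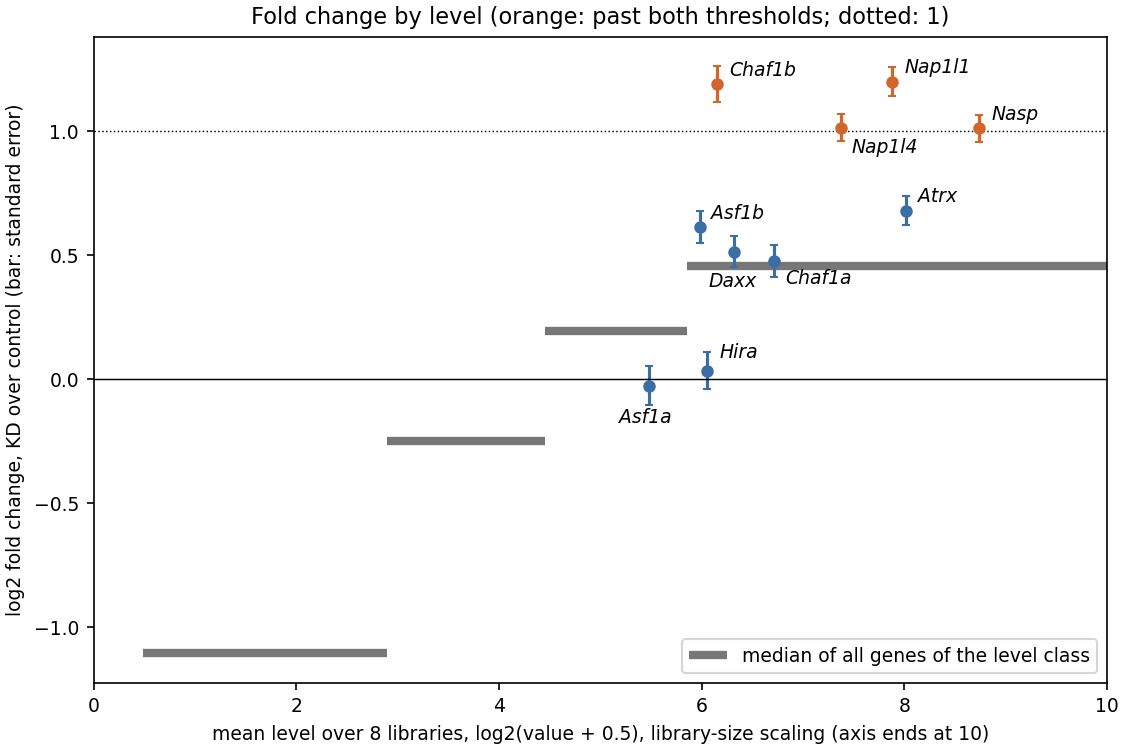
Log2 fold change with its standard error (y axis) against the mean level over 8 libraries (x axis, log2 of value + 0.5) for the members, with grey bars at the median of all genes of each level class. The 4 members past both thresholds (orange) lie above 1, while *Asf1a* and *Hira* lie near 0, below the medians of their classes.

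*Asf1a* and *Asf1b* encode the paralogs of ASF1. *Asf1a* (gene 66403, GRCm38 chromosome 10, 53596961 to 53609225, plus strand) was 51.6, 43.5, 43.4, and 39.9 in control and 43.3, 42.2, 44.9, and 44.3 in KD. All KD values lay inside the control range, and the log2 fold change was −0.026 ± 0.078 (SE, 95% interval −0.19 to 0.13, adjusted p = 0.768). *Asf1b* (gene 66929, chromosome 8, 83955694 to 83970195, plus strand), the form linked to dividing cells, was 52.3, 51.1, 49.7, and 50.3 in control and 80.0, 80.3, 78.1, and 74.0 in KD. Every KD library was above every control library, by a log2 fold change of 0.61 ± 0.06 (adjusted p = 1.2e-09), below the fold threshold. The value of *Asf1a* over that of *Asf1b* was 0.875 in control and 0.562 in KD, and since these values are not per length only the change in this ratio is read. As a log2 ratio within each library, *Asf1a* to *Asf1b* went from −0.19 ± 0.13 to −0.83 ± 0.08 (SD, n = 4), a difference of −0.64 (two-sided exact permutation p = 0.0286, the lowest value possible for groups of 4, and 0.0286 after adjustment over 4 ratios). No library of one group reached the range of the other. Apart from the pseudocount of 0.5, a ratio within a library is the same when scaled to library size or to spike-ins.

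The starts of both genes are shown since the paralogs parted in the KD. The 300 bases run from 250 before to 50 after the annotated start (RefSeq, GRCm38.p6), with CCAAT, the letters bound by NF-Y, in capitals where found on either strand (as ATTGG on the other).
*Asf1a*, chr10:53596711-53597010, plus strand: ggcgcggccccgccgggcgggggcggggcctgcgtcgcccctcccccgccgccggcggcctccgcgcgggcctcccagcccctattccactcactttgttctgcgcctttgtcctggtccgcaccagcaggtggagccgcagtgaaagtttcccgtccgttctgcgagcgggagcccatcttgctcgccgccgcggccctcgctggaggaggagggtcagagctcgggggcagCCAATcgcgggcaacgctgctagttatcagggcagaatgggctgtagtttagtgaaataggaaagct
*Asf1b*, chr8:83955444-83955743, plus strand: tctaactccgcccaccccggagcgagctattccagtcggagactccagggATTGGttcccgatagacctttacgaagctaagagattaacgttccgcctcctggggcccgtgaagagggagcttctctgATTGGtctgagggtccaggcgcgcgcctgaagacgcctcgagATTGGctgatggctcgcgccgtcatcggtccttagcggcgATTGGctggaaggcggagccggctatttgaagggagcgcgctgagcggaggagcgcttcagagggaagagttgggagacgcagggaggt

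The *Asf1b* window holds 4 matches and the *Asf1a* window 1. Of 32851 RefSeq promoter windows of that length, 37.4% hold at least 1 match and 1.06% hold 4 or more. *Asf1a* had 2 matches to the GC box GGGCGG and *Asf1b* had 1, and 35.7% of windows hold one. None of the 9 members with a window held the E2F letters TTTCCCGC, TTTCGCGC, TTTGCCGC, or TTTGGCGC, which 2.26% of windows hold. Other forms of the E2F site were not searched, so the windows may hold such a form. *Nap1l4* has no entry. A match is a description of letters only.

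*Chaf1a* and *Chaf1b* encode the large and the middle subunit of CAF-1. *Chaf1a* (gene 27221, chromosome 17, 56040416 to 56068026, plus strand) was 82.5, 92.1, 90.6, and 90.7 in control and 117, 122, 118, and 140.4 in KD. The groups did not overlap (log2 fold change 0.48 ± 0.06, SE, adjusted p = 1.9e-07). *Chaf1b* (gene 110749, chromosome 16, 93883900 to 93906115, plus strand) was 42.9, 53.7, 49.0, and 41.7 in control and 103, 106, 110.0, and 108 in KD. It more than doubled, with a mean of 46.8 ± 5.58 in control and 107 ± 2.84 in KD (SD, n = 4), and a log2 fold change of 1.19 ± 0.07 (SE, adjusted p = 2.9e-14). The subunits therefore did not rise alike. The log2 ratio of *Chaf1a* to *Chaf1b* was 0.93 ± 0.14 in control and 0.21 ± 0.12 in KD (SD, n = 4), a difference of −0.71 (exact permutation test, two-sided, p = 0.0286, adjusted 0.0286). In linear terms this ratio was 1.90 in control and 1.16 in KD, again not per length. *Rbbp4*, which encodes the histone-binding subunit that it shares with other complexes, was 249.1 ± 15.3 in control and 371 ± 6.4 in KD (log2 fold change 0.58 ± 0.06, SE, adjusted p = 3.2e-10), and −0.023 on the log2 scale with quantile normalisation.

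*Hira* (gene 15260, chromosome 16, 18876750 to 18970309, plus strand), the scaffold of the HIRA complex, was 73.4, 66.9, 56.7, and 64.3 in control and 64.4, 65.7, 62.4, and 74.9 in KD. The groups overlapped over most of their range (log2 fold change 0.035 ± 0.076, SE, 95% interval −0.12 to 0.19, adjusted p = 0.679). Its cofactors did not move as one. *Ubn1* was 58.6 ± 7.58 in control and 60.6 ± 2.14 in KD (SD, n = 4, adjusted p = 0.514, limma). *Ubn2* fell by 0.62 on the log2 scale, from 72.2 ± 1.98 to 46.8 ± 3.38 (SD, n = 4, adjusted p = 3.8e-09, limma), but had 0.40 with spike-in scaling. *Cabin1* was 91.1 ± 4.59 in control and 79.4 ± 6.44 in KD (log2 fold change −0.20 ± 0.07, SE, adjusted p = 0.0080), and had 0.82 with spike-in scaling. None of these 4 genes was higher in KD past the test in the fit of library-size values, but with the length correction *Hira* had 0.22 (95% interval 0.068 to 0.38, limma's adjusted p = 0.0092).

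*Daxx* (gene 13163, chromosome 17, 33909404 to 33915590, plus strand), which binds H3.3-H4, was 68.5, 65.7, 64.4, and 66.3 in control and 87.9, 96.3, 92.7, and 103 in KD. The groups stood apart (log2 fold change 0.51 ± 0.06, SE, adjusted p = 3.1e-08). *Atrx* (gene 22589, chromosome X, 105797615 to 105929372, minus strand), the ATPase that works with DAXX, was 210.2, 206, 191, and 209 in control and 301, 331, 353, and 325 in KD. It was higher in all KD libraries, by 0.68 ± 0.06 (log2 fold change, SE, adjusted p = 2.6e-11). *Daxx* to *Atrx* as a log2 ratio was −1.62 ± 0.04 in control and −1.78 ± 0.11 in KD (SD, n = 4). That difference, −0.16, was at the smallest p of the exact permutation test (two-sided, p = 0.0286), but with the libraries thinned to the depth of the shallowest it was −0.10 (exact permutation p = 0.0857), and with quantile normalisation it turned to 0.081 (exact permutation p = 0.171). Leaving out any 1 of the control libraries gave −0.17 to −0.15 (exact permutation p = 0.0571), and a correction for exon length gave −0.82 (exact permutation p = 0.0286). *Atrx* has 10244 bases of exons, the longest of the members, and a correction of fold changes for exon length put its log2 fold change at 1.36, past both thresholds. The *Atrx* window, like that of *Asf1b*, holds 4 CCAAT matches (in capitals, RefSeq, GRCm38.p6). Of the called members *Chaf1b* has 0, *Nap1l1* 1, and *Nasp* 2, and *Nap1l4* has no window. A relation between matches and the change in KD was not tested.
*Atrx*, chrX:105929323-105929622, minus strand: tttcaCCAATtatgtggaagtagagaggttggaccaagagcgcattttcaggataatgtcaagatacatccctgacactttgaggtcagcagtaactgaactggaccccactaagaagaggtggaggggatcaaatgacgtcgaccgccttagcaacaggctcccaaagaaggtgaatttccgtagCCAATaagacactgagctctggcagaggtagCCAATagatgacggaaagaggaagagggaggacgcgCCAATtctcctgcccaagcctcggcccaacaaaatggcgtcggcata

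*Nap1l1* and *Nap1l4* encode the broadly expressed NAP1 proteins. *Nap1l1* (gene 53605, chromosome 10, 111472882 to 111498150, plus strand) was 168, 145, 149, and 158 in control and 385, 359, 344, and 339 in KD. Its log2 fold change of 1.20 ± 0.06 (SE, adjusted p = 3.6e-16) was close to that of *Chaf1b* (1.19), and which of these was larger differed between settings. *Nap1l4* (gene 17955, chromosome 7, 143513579 to 143549882, minus strand) was 119, 122, 112, and 114 in control and 236, 239, 237, and 232 in KD, a log2 fold change of 1.01 ± 0.05 (SE, adjusted p = 1.7e-15). Both groups were tight and far apart. The log2 ratio of *Nap1l1* to *Nap1l4* rose from 0.41 ± 0.11 to 0.59 ± 0.08 (SD, n = 4), by 0.18 (exact permutation test, two-sided, p = 0.0286, adjusted 0.0286). It was 0.15 without KD replicate 1 (exact permutation p = 0.0857), 0.19 without KD replicate 2 (exact permutation p = 0.0571), 0.11 with quantile normalisation (exact permutation p = 0.200), and 0.39 with the length correction (exact permutation p = 0.0286). Of the NAP1 genes that are mainly neuronal, *Nap1l2* fell by 1.08 on the log2 scale, from 3.92 ± 1.48 to 1.52 ± 0.24 (SD, n = 4, adjusted p = 0.00043, limma). It had −0.23 with spike-in scaling and 0.083 with quantile normalisation. Its level lay in the lowest class, where the median log2 fold change of all genes was −1.10.

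*Nasp* (gene 50927, chromosome 4, 116601052 to 116628676, minus strand) was 296, 299.98, 299, and 305 in control and 619.9, 581, 611, and 609 in KD. Control libraries differed little, and the KD mean was 2.02 times the control mean (log2 fold change 1.01 ± 0.05, SE, adjusted p = 1.1e-15). *Nasp* and *Nap1l4* lay just past the fold threshold of 1 on the log2 scale. *Nap1l4* was 0.99 without control replicate 3 and *Nasp* was 1.00 without KD replicate 1, just below 1, which left 3 called members in each case.

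**Figure D3:**
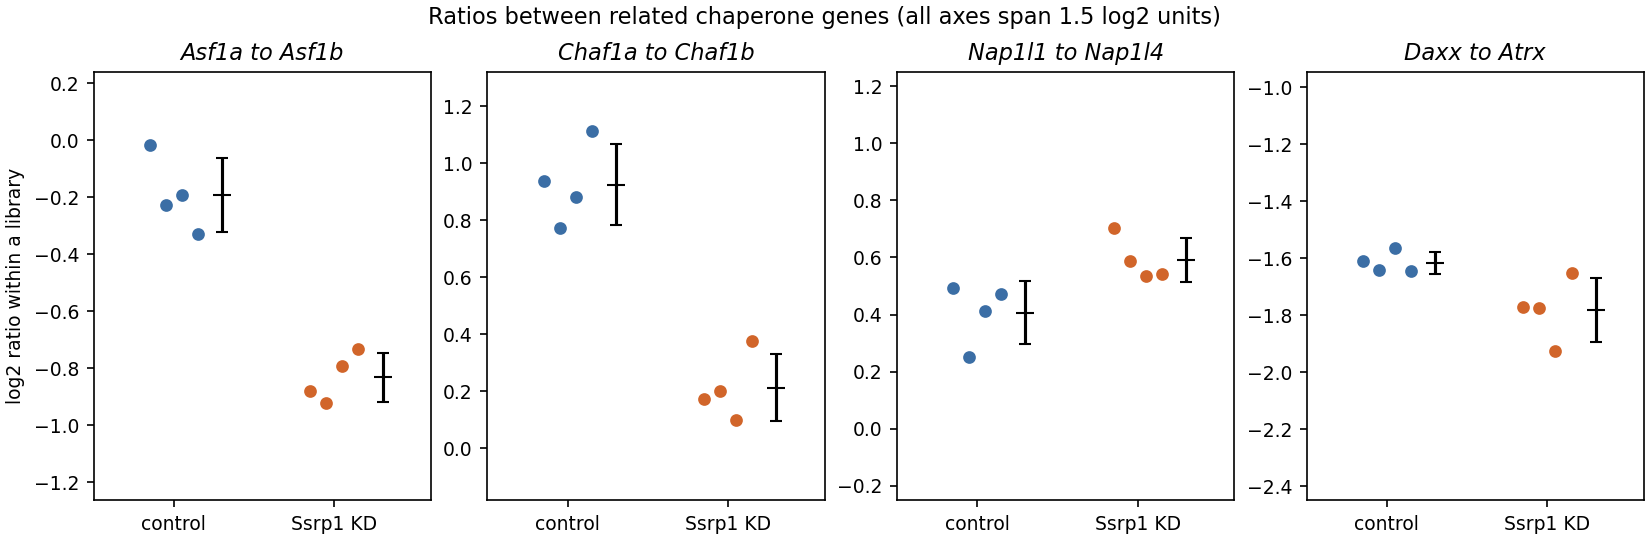
Log2 ratio of 2 related members within a library (y axes, each spanning 1.5 units) in control (blue) and Ssrp1 KD (orange), with mean and SD in black. *Asf1a* to *Asf1b* and *Chaf1a* to *Chaf1b* differ by −0.64 and −0.71, and the ratios of *Nap1l1* to *Nap1l4* and of *Daxx* to *Atrx* by 0.18 and −0.16.

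The file also holds values scaled to spike-in RNA. On that scale the median log2 fold change of all genes was 0.95, 48.1% of genes were called higher and 7.03% lower. All 10 members were higher in every KD library than in any control library, against 48.8% of all genes, and 9 were called, the exception being *Asf1a* (0.99 ± 0.29, SE). *Asf1a* and *Hira* stood 0.035 and 0.10 above the median of all genes, *Chaf1a*, *Daxx*, *Asf1b*, and *Atrx* 0.54 to 0.75 above it, and *Nasp*, *Nap1l4*, *Chaf1b*, and *Nap1l1* 1.08 to 1.27 above it. KD replicate 1 was the lowest KD library for each member. For *Nasp* it was 571, and the other KD libraries were 1076, 988, and 916, against 199, 179.5, 201, and 273 in control. Leaving out 1 library at a time gave 8 to 10 called members, with 10 in the fits without KD replicate 1, control replicate 1, or control replicate 4.

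Quantile normalisation, a further scaling that gives all libraries the same distribution of values, left 0 members called. *Chaf1b* was then at 0.89, *Nap1l1* at 0.66, *Nap1l4* at 0.55, and *Nasp* at 0.37. *Asf1b* and *Daxx* were still higher by the adjusted p, at 0.32 and 0.18. *Chaf1a* at 0.11 (adjusted p = 0.144) and *Atrx* at 0.10 (adjusted p = 0.0542) no longer passed it. *Asf1a* and *Hira* were lower, at −0.24 (adjusted p = 0.0092) and −0.26 (adjusted p = 0.0032). The direction of these 2 genes hence depended on the scaling, while the other members had positive fold changes in all 3.

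**Figure D4:**
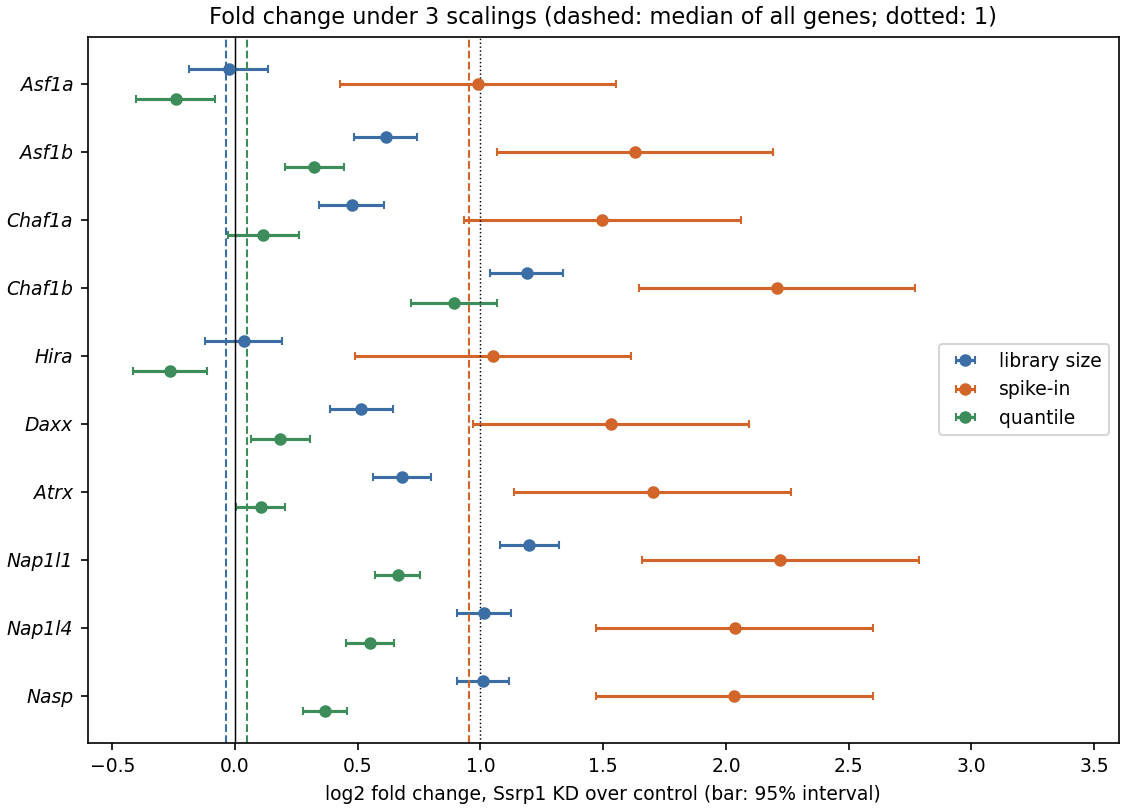
Log2 fold change of KD over control with its 95% interval (x axis) for each member under 3 scalings, with the median of all genes as a dashed line of the same colour and the fold threshold of 1 as a dotted line. Spike-in values lie about 1 unit to the right with wide intervals, and quantile values put *Asf1a* and *Hira* below 0.

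Levels between genes were compared as values per kb of exon. In control the order was *Nasp* (95.1 ± 1.21 per kb, SD, n = 4), *Nap1l4* (51.2 ± 1.95), *Nap1l1* (37.9 ± 2.49), *Asf1b* (31.8 ± 0.69), *Chaf1a* (26.9 ± 1.32), *Chaf1b* (24.5 ± 2.92), *Daxx* (23.4 ± 0.60), *Asf1a* (20.4 ± 2.25), *Atrx* (19.9 ± 0.84), and *Hira* (14.4 ± 1.52). Of the 9 pairs of neighbours, 5 had ranges that stood apart, and from *Chaf1a* down to *Atrx* each gene overlapped the next. In KD *Chaf1b* came directly after *Nap1l1* with 55.9 ± 1.48 per kb, above *Asf1b* with 48.8 ± 1.82, and their ranges did not meet. *Asf1a* stood below *Atrx*, also without overlap. *Nasp* exceeded *Hira* 6.60 times in control and 13.02 times in KD, in values per kb.

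RNA from the chromatin fraction of mESCs came as 2 libraries with 191237 and 317468 counts on protein-coding genes, as 94.4% and 90.6% of all counts fell on other genes. Member counts were low, from 7 and 5 for *Asf1b* to 148 and 144 for *Nasp* and 147 and 281 for *Atrx*. Per kb of exon and per 1000000 protein-coding counts, *Nasp* was highest in both libraries with 245 and 144. *Atrx* had 75.0 and 86.4, *Nap1l1* 71.5 and 70.0, and *Nap1l4* 45.8 and 86.9, so that their order differed between the libraries. *Asf1b* was lowest by the mean of both, with 22.9 and 9.85, and *Hira*, with 21.9 and 27.8, was below it in the first. In control total RNA per kb, *Asf1b* was in place 4 and *Atrx* in place 9. Over the 10 members the Spearman correlation of chromatin and control total RNA per kb was 0.37, with the same exon lengths in both measures. No KD library of this assay was used here, so nothing can be said of a change. In the table of NPCs and mESCs, the authors' mean log2 expression over both was 8.60 for *Nasp*, 7.99 for *Nap1l1*, and 7.56 for *Atrx*, and 5.21 for *Asf1a*, the lowest member.

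FACT peaks in E14 mESCs were given as 1 list per subunit, 10114 peaks for SSRP1 and 3855 for SUPT16, without peak heights or replicates. A SSRP1 peak was assigned to 8 of the 10 members, where 36.0% of all genes had one. The members are well expressed, the paper reports that FACT binding goes with active expression, and peak shares among genes of like level were not computed. None was assigned to *Asf1a* or *Atrx*. Within 1000 bp of an annotated start, a SSRP1 peak lay at *Asf1b*, *Hira*, *Daxx*, *Nap1l1*, *Nap1l4*, and *Nasp* (6 members, 26.1% of all genes). Peaks of at least 500 bp were those of *Hira*, *Daxx*, *Nap1l4*, and *Nasp* (17.6% of all genes). The longest covered the start of *Daxx* (chr17:33908588-33909862, 1274 bp), and *Daxx* had 2 more of 294 bp, in the gene body and past its end. *Hira* had one of 980 bp (chr16:18876662-18877642), *Nasp* of 784 bp (chr4:116627056-116627840), and *Nap1l4* of 686 bp (chr7:143548146-143548832), each over an annotated start. At *Nap1l1* (chr10:111473334-111473628) and *Asf1b* (chr8:83955718-83956110) the peak began 107 and 24 bp after the nearest start. The peaks of the CAF-1 genes were distant. That of *Chaf1a* lay in an intron 25482 bp from the start and that of *Chaf1b* beyond the 3′ end of the gene.

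SUPT16 peaks were assigned to *Asf1b*, *Chaf1a*, *Hira*, and *Nap1l4* (4 members, 18.6% of all genes), within 1000 bp of a start at all of these but *Chaf1a* (15.6% of all genes), and with at least 500 bp at *Asf1b* and *Nap1l4* (6.08% of all genes). Peaks of both subunits overlapped at *Nap1l4* over 462 bp and at *Hira* over 112 bp. At *Asf1b* the SUPT16 peak (chr8:83954570-83955550) ended 168 bp before the SSRP1 peak began, with the start between them. Starts of other genes lay within 1000 bp of the peaks at *Hira* (*Mrpl40*), *Daxx* (*BC051226* at the start and *Zbtb22* at the peak past the gene end), and *Asf1b* (*Gm10644*), and to which gene such a peak belongs was not tested. A relation between peaks and the change in KD was not tested. With a SSRP1 peak within 1000 bp of a start, log2 fold changes were 1.20 (*Nap1l1*), 1.01 (*Nap1l4*), 1.01 (*Nasp*), 0.61 (*Asf1b*), 0.51 (*Daxx*), and 0.035 (*Hira*). *Hira* had its SSRP1 and SUPT16 peaks over different annotated starts. Without such a peak they were 1.19 (*Chaf1b*), 0.68 (*Atrx*), 0.48 (*Chaf1a*), and −0.026 (*Asf1a*).

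The starts of *Hira* and *Daxx* are shown for the SSRP1 peaks over them (RefSeq, GRCm38.p6), with the bases under the peak in capitals, 137 of 300 at *Hira* and all 300 at *Daxx*. Of 3 windows of *Daxx* the first is shown. They hold 69.0% and 69.7% G and C, where the median of all windows was 52.7%. Such shares were also found with no peak at the start, as *Asf1a* and *Chaf1b* had 69.0% and 70.3%. The *Nasp* window had 48.3%, but 0 of its bases lay under the *Nasp* peak, which covers another annotated start.
*Hira*, chr16:18876500-18876799, plus strand: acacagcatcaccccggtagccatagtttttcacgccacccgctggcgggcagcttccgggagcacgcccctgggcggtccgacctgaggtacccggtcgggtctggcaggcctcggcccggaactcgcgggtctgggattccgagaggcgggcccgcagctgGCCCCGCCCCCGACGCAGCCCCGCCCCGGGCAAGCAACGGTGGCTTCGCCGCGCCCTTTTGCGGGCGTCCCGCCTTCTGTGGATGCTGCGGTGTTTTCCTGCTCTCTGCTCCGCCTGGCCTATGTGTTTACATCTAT
*Daxx*, chr17:33909195-33909494, plus strand: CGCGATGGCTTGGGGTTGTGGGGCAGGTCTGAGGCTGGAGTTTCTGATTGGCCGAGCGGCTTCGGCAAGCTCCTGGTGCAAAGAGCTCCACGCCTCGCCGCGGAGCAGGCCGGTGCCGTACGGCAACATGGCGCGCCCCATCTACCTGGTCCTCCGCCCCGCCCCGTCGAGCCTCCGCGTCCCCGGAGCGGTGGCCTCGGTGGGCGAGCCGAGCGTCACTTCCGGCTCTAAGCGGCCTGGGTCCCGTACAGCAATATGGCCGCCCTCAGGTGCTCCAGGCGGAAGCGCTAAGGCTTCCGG

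**Figure D5:**
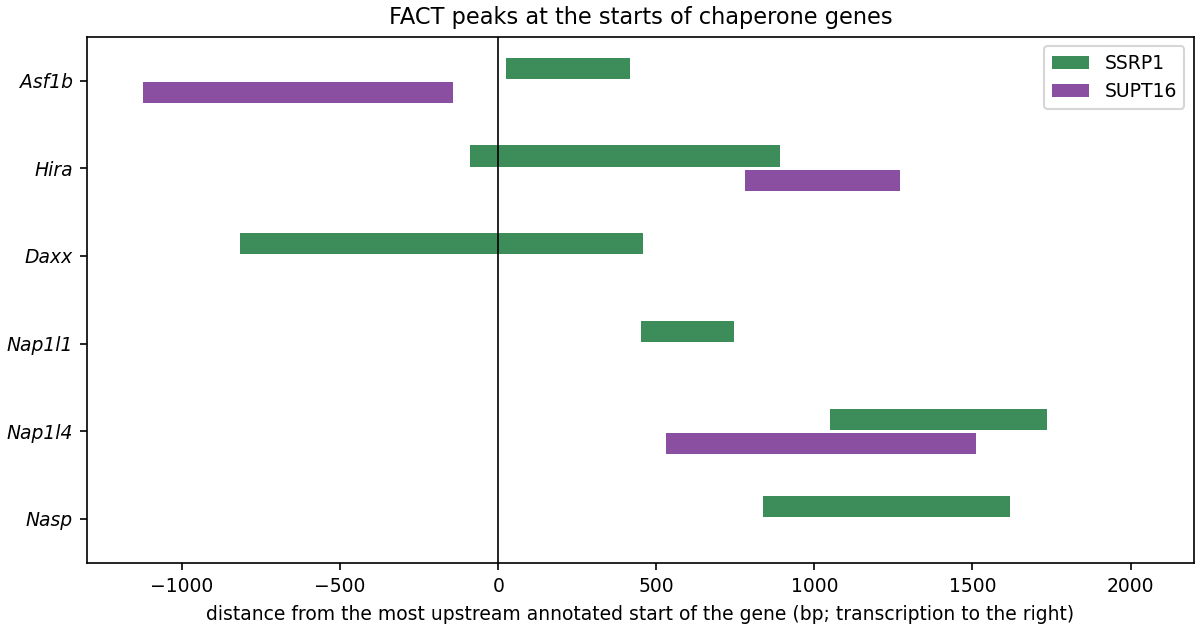
SSRP1 (green) and SUPT16 (purple) peaks of the 6 members with a peak within 1000 bp of a start, as distance in bp from the most upstream annotated start (x axis, transcription to the right). All members shown except *Asf1b* have further annotated starts to the right of 0, and the peaks of both subunits overlap at *Hira* and *Nap1l4* only.

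The members were set beside other genes of the same pathways at library-size scaling. Of 25 other chaperones and cofactors, 24 had a value (*Nap1l5* had none). Of these, 5 were called higher and 1 lower (8.07% and 20.6% of all genes), 13 were higher and 6 lower by the adjusted p alone (35.4% and 37.3% of all genes), and their median log2 fold change was 0.25 (1.27 with spike-in scaling, where 18 were called higher and 0 lower, against 48.1% and 7.03% of all genes). The called genes were *Anp32a* (1.76) and *Anp32e* (1.58), acidic proteins of which the latter removes H2A.Z, *Npm3* (1.59) and *Npm1* (1.07), nucleoplasmin family chaperones, and *Set* (1.26), an inhibitor of protein phosphatase that also binds histones. *Nap1l2* (−1.08) was the one called lower, near the median of its level class (−1.10), and quantile normalisation turned its sign, as given above. Of 7 variant histone genes 5 were called higher (8.07% of all genes), with a median of 1.33, led by *H2afz* (1.83) and followed by *H3f3b* (1.76), *H2afx* (1.45), *H3f3a* (1.33), and *H2afv* (1.05). These 5 were also higher with quantile normalisation (0.76 to 2.41). *H2afy* (macroH2A) had 0.058, and −0.17 with quantile normalisation. *H3f3b*, *H3f3a*, *H2afz*, *Npm1*, and *Set* have near-identical copies in the genome, their values are uncertain, and *H3f3b* was only 1.98 ± 1.35 in control and 6.96 ± 0.83 in KD (SD, n = 4). Of 14 replication fork genes 13 were higher by the adjusted p alone and 2 were called (35.4% and 8.07% of all genes), *Prim2* (1.45), a primase subunit, and *Pola2* (1.16), a subunit of DNA polymerase alpha. Their median was 0.78, and the lowest was *Pole* (0.061, adjusted p = 0.321, limma), which was −0.41 with quantile normalisation. The lists were not compared with genes of like level. In the highest level class 69.7% of genes were higher by the adjusted p alone and 15.3% were called higher.

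Markers of cell types also differed between the groups, in both directions, and their calls stand beside 8.07% of all genes called higher and 20.6% called lower (the lowest level class had a median of −1.10). The 8 embryonic stem cell markers, among them *Pou5f1*, *Sox2*, and *Nanog*, were present in all libraries, and 6 were called higher. Their summed value was 1620 to 1738 in control and 4667 to 5154 in KD. The 4 fibroblast markers summed to 41.7 to 52.4 in control and 12.2 to 13.7 in KD, with 3 called lower, and the 4 endoderm markers to 35.1 to 52.4 and 10.3 to 13.3, with 4 called lower. *Hand1*, the one mesoderm marker of 3 with a value, was 10.9 ± 2.44 in control and 2.88 ± 0.31 in KD (SD, n = 4). The 2 trophectoderm markers with a value of 3 summed to 15.7 to 22.2 and 8.61 to 12.9, with 1 called lower. The 3 neural markers with a value of 4 summed to 38.4 to 55.4 and 109 to 120.4, with *Tubb3* called higher and *Pax6* and *Map2* called lower. Every marker with a value had group means above 0, and *T*, *Mixl1*, *Elf5*, and *Neurog1* had no value. The stem cell markers had positive and the endoderm markers negative fold changes also with spike-in scaling and quantile normalisation. The part of these shifts in the members' changes was not tested.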

How the data were processed

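E14 mESC libraries were grouped by their labels. The authors aligned RNA-seq reads to mm10 with STAR and counted them with featureCounts. The deposited signal per gene comes in a library-size and a spike-in scaling. For the former the paper's methods name TMM normalisation, and library totals were not equal. These values gave 4405 called genes, against 4410 with TMM of the recovered reads. Whole reads were recovered from the steps between values in 100% of values (within 0.1 read). Each chromatin RNA count is deposited raw. The authors called peaks with PePr on replicates together. In the table of NPCs, the deposited log2 average expression was read as the authors' mean, and fold changes and p-values of the authors' comparisons, also for exons, were not used. MNase-seq, ATAC-seq and NET-seq were not analysed here.

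Library-size values of 15384 genes were fitted as log2(value + 0.5) with limma 3.58.1 (trend) in R 4.3.3, so that fold changes of low genes are understated, and p-values were adjusted by Benjamini-Hochberg over all genes. Ratios between members were compared by exact permutation. Alternatives were other pseudocounts (0.1 and 2), quantile and spike-in scaling, TMM and size factors, tests of the recovered reads in edgeR 4.0.16 or DESeq2 1.42.0, a filter on reads (a mean of 10 in each group), no trend, thinning, a loess correction for exon length, leaving out each library, and a replicate block. Quantile and length alternatives of the ratios were chosen after seeing the data, as was leaving out libraries at spike-in scaling. The tests were first run on simulated data.

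The members and the gene lists were chosen with earlier results of these data known. All members were named, with *Ssrp1* and *Supt16*, and list genes that were called, had the largest or smallest change of their list, or are cofactors of a member. Positions are from RefSeq for GRCm38, the assembly that mm10 names, and peak coordinates are as the lists give them. Python 3.11.15 with pandas 2.3.3 and scipy 1.17.1 was used.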

Additional observations from a re-analysis of the deposited data

Results flagged for a closer look

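In 28 groups of 4 libraries, 10 members and 4 ratios in control and KD, the highest and the lowest library were compared with the others of the group. *Chaf1a* in control replicate 1 was 82.5, below the other control libraries by 0.845 of the whole range of the group, more than Dixon's test allows at the 95% level. Chance alone marks about 1 in 20 such groups. Without that library the log2 fold change of *Chaf1a* stayed within 0.42 to 0.51, the range over all libraries left out in turn.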

How the results depend on the processing

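The 4405 called genes became 8476 with spike-in scaling (7394 higher and 1082 lower, 87.2% of calls higher against 28.2%), and 11192 by the adjusted p alone. Quantile normalisation gave 1518 higher and 1656 lower (47.8% higher). Leaving out 1 library gave 4254 to 4635 genes at library-size scaling and 7787 to 9441 at spike-in scaling. Of the members 4 were called, 9 with spike-in scaling, 0 with quantile normalisation, 8 by the adjusted p alone, and 3 to 4 with 1 library left out. The other settings, edgeR and DESeq2 among them, called 4 members, with *Atrx* in place of *Nap1l4* (0.96) under the length correction. TMM, size factors, edgeR and DESeq2 scale the libraries much as the deposited values do, so their counts are no independent check of the scaling. The median log2 fold change of all genes was −0.035 in the main fit, −0.036 with TMM and −0.0073 with size factors. A scaling to equal totals was not run. It would lower all log2 fold changes, so the count of 4 called members holds only for scalings like the deposited one. The log2 fold change of *Asf1a* turned to 0.99 with spike-in scaling, 0.0026 with size factors, and 0.045 without control replicate 1 (−0.076 to 0.045 over libraries left out). That of *Hira* turned to −0.26 with quantile normalisation, −0.0053 with thinning, −0.031 without control replicate 3, and −0.021 without KD replicate 4 (−0.031 to 0.092). The causes were not tested.

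With a replicate block, the same-numbered libraries compared by exact sign permutation, the ratios kept their differences of −0.64, −0.71, 0.18, and −0.16, and p was 0.125, the smallest that 4 pairs allow. In the fit across genes the block gave 1242 higher and 3163 lower, the same counts as without it. Deviations of same-numbered libraries correlated between −0.059 and −0.007, so no shared deviation was seen. That cannot decide whether same-numbered libraries were prepared together, which the labels do not say. *Daxx* to *Atrx* was −0.10 when thinned and reversed to 0.081 with quantile normalisation, and *Nap1l1* to *Nap1l4* was 0.11 with the latter (exact permutation p = 0.200), while the length correction gave −0.82 and 0.39. With 1 library left out the ranges were −0.68 to −0.58 (*Asf1a* to *Asf1b*), −0.77 to −0.65 (*Chaf1a* to *Chaf1b*), 0.13 to 0.21 (*Nap1l1* to *Nap1l4*), and −0.21 to −0.12 (*Daxx* to *Atrx*). Peaks of at least 500 bp were assigned to 4 members for SSRP1 and 2 for SUPT16 (17.6% and 6.08% of all genes), and an overlap of both subunits over at least 50% of the shorter peak held at 1 member, against 2 by 1 bp. Control libraries were shallower than KD libraries, and intervals cover the spread between libraries of 1 cell line. Chromatin counts of *Asf1b* and *Chaf1b*, at most 20, allow no order between them.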
